A study of Mus musculus with 446 samples.

Results

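The 8 genes described here encode enzymes that insert double bonds into long-chain fatty acids or lengthen them: the desaturases Fads1, Fads2 and Fads3 and the elongases Elovl1, Elovl2, Elovl3, Elovl5 and Elovl7. They were chosen by symbol, as a named enzyme family, and not by a cutoff on their values, though earlier results of these data were known. All 8 are among the 47643 genes of the liver and muscle tables, and 2 of them, Fads1 and Elovl1, are among the 2728 complete genes of the abdominal adipose table used here. The other 6 were not analysed in adipose tissue. The mice were male Diversity Outbred animals, whose genomes are mosaics of inbred founder strains that differ from animal to animal, and RNA-seq covered the liver, a muscle and the abdominal fat of each. Mice were housed singly from 6 weeks of age on a control diet with 10 kcal% fat (D12450J/D12450JN), and at the start of the study were randomised either to stay on it or to eat a high-fat diet with 60 kcal% fat (D12492/D12492N) for 14 weeks, with fasting periods for glucose measurements. The labels do not name the muscle. The diets were compared in 74 control and 74 high-fat mice in liver and in muscle, and in 73 control and 75 high-fat mice in adipose tissue. Liver and muscle of mouse 80, on the high-fat diet, were left out because the library labelled liver held muscle RNA and the library labelled muscle held liver RNA.

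Mammals cannot make linoleic and alpha-linolenic acid, and turn these dietary acids into arachidonic, eicosapentaenoic and docosahexaenoic acid by alternating desaturation and elongation in the endoplasmic reticulum. Fads2, the delta-6 desaturase, acts first, Elovl5 lengthens its product, Fads1, the delta-5 desaturase, adds the next double bond, and Elovl2 lengthens the longest polyunsaturated acids. The liver is a main site of this synthesis. Elovl1 and Elovl3 lengthen mainly saturated and monounsaturated very-long-chain acids, with Elovl1 feeding sphingolipid synthesis and Elovl3 known from skin, brown fat and the liver of male mice. Elovl7 also acts on saturated very-long-chain acids, and Fads3 lies beside Fads1 and Fads2 on chromosome 19 and has been linked to sphingoid base desaturation.

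Values are transcripts per 1000000 (TPM), divided by a scale factor per library so that most protein-coding genes keep 1 level within a tissue, and are called scaled TPM. TPM keep no read depth, so how deeply each library was sequenced is not known and counting error cannot be computed. Scale factors ran from 0.00994 to 1.57 in liver, from 0.0454 to 1.85 in muscle and from 0.0388 to 1.28 in adipose tissue. Factors below 0.333 of the median in their tissue, called low, occurred in 26 liver libraries (14 control, 12 high-fat), 11 muscle libraries (2 control, 9 high-fat) and 18 adipose libraries (11 control, 7 high-fat). Hepatocyte markers summed to a median of 56100 scaled TPM in control and 51100 in high-fat livers, and muscle fibre markers to 121000 and 109000 in muscle, as the labels say. RNA of other tissues was present in some libraries: muscle fibre markers reached 100 scaled TPM or more in 8 livers (4 on each diet), hepatocyte markers 500 or more in 10 muscles (5 on each diet), keratinocyte markers 100 or more in 5 muscles (1 control, 4 high-fat), and Crisp1 100 or more in 2 high-fat muscles. The diet differences in liver and muscle and their interactions with liver were also computed without these libraries. The other values include them.

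On the control diet Fads1, Fads2, Elovl2, Elovl3 and Elovl5 had far higher medians in liver than in muscle. In liver the medians ordered as Elovl5 at 289.2 scaled TPM, Elovl3 at 279.9, Fads2 at 156.4, Elovl2 at 129.3, Fads1 at 118.8, Elovl1 at 19.8, Fads3 at 3.62 and Elovl7 at 0.0777. Neighbours in the upper part of this order overlapped: Elovl5 was above Elovl3 in 40 of 74 livers and Elovl2 above Fads1 in 44 of 74. Fads1 was above Elovl1, and Elovl1 above Fads3, in 74 of 74. Muscle had another order, with Elovl5 at 10.5 scaled TPM, Elovl1 at 7.06, Fads1 at 4.65, Fads3 at 3.90, Fads2 at 2.41, Elovl7 at 0.381, Elovl3 at 0.213 and Elovl2 at 0.0626. Fads1 was above Fads3 in only 43 of 74 muscles, so these neighbours were not separated. Adipose tissue held Elovl1 at 49.97 and Fads1 at 48.94 scaled TPM, and Elovl1 was the higher in 37 of 73 mice. The adipose median of Elovl1 lay above its liver median and that of Fads1 below, with each tissue scaled on its own.

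**Figure D1:**
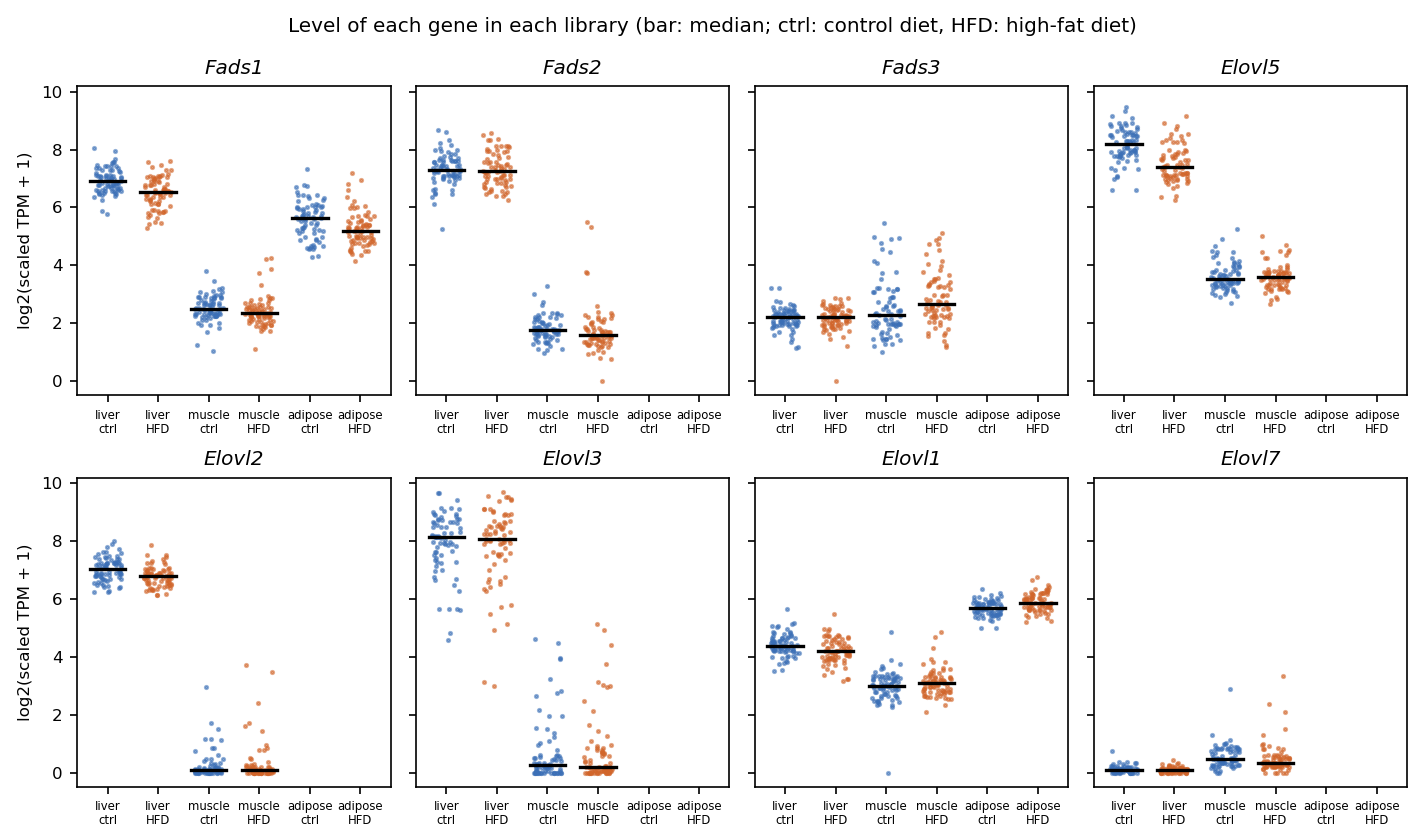
Scaled TPM of each gene as log2(scaled TPM + 1), 1 point per library, by tissue and diet (ctrl, control; HFD, high-fat), with the median as a bar. Only Fads1 and Elovl1 have adipose points. Liver levels are far above muscle levels for Fads1, Fads2, Elovl2, Elovl3 and Elovl5, and a few muscle libraries lie far above the rest.

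When both tissues were scaled together, 4 of the 5 genes that reached the filter on low values in both tissues were higher in control liver than in control muscle by limma, where 88.5% of all genes differed in either direction, 43.6% being higher in liver and 44.9% lower. The differences were 6.01 for Fads2 (SE 0.0804), 5.11 for Elovl5 (SE 0.0877), 4.94 for Fads1 (SE 0.0703) and 1.97 for Elovl1 (SE 0.0739) on the log2(scaled TPM + 1) scale, n = 74 each. The largest of their adjusted p values was 3.44e-58. Fads3 did not pass, at 0.10 (95% interval -0.14 to 0.34, adjusted p = 0.437). Its direction depended on scaling, with -0.57 for TPM as deposited and -0.38 for scaling within each tissue, where the median of all genes moved to -0.72 and -0.51. Elovl2 and Elovl3 passed the filter through liver alone, with 1 scaled TPM or more in 6 and 17 of 74 control muscles, so their differences are a description with no test. They were 7.06 for Elovl2 and 7.53 for Elovl3, and 9.62 and 9.57 with a pseudocount of 0.1. Elovl7 was below 1 scaled TPM in all livers, and in all but 4 control and 5 high-fat muscles.

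On the high-fat diet 4 of the 7 genes tested in liver were lower, Elovl5, Fads1, Elovl2 and Elovl1, while Fads2, Fads3 and Elovl3 did not pass the test and none rose. Over all 12374 genes tested in liver by limma, 9.94% changed, of which 4.57% rose and 5.37% fell as shares of all genes. The median difference of the 7 genes was -0.22, against -0.01 over all genes tested (log2). In bulk tissue, fewer cells of a type and less RNA per cell cannot be told apart. Control mice carry the lower numbers and high-fat mice the higher, so anything that followed mouse number cannot be told apart from diet. The hour of killing is not given, and its part in the diet differences was not tested.

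Elovl5, which lengthens the products of Fads2, had the largest difference. Its lowest, median and highest values were 95.3, 289.2 and 708.4 scaled TPM in control livers and 76.1, 167.5 and 568.5 in high-fat livers. The groups overlapped widely, but 60 of 74 high-fat livers did not exceed the control median. The mean fell from 310.0 to 201.1 scaled TPM (n = 74 each), a log2 difference of -0.65 (SE 0.0995, limma adjusted p = 1.72e-07).

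Fads1, the delta-5 desaturase, ranged from 54.2 through a median of 118.8 to 264.4 scaled TPM in control livers and from 38.03 through 92.25 to 192.3 in high-fat livers. The high-fat range lay lower at both ends, and 54 of 74 high-fat livers did not exceed the control median. The mean fell from 126.4 ± 39.04 to 96.72 ± 35.81 (SD, n = 74 each), a log2 difference of -0.42 (SE 0.0795, limma adjusted p = 3.42e-05).

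Fads2, the delta-6 desaturase beside it, did not pass the test. It spanned 36.9, 156.4 and 411.3 scaled TPM (lowest, median, highest) in control livers and 75.3, 151.4 and 383.5 in high-fat livers, with 40 of 74 high-fat livers not above the control median. The means were 171.0 ± 65.99 and 171.6 ± 72.36 (SD, n = 74 each), and the log2 difference of -0.01 had a 95% interval of -0.19 to 0.17 (limma adjusted p = 0.969). Fads3, at 3.64 ± 1.24 and 3.66 ± 1.18 (SD, n = 74 each), differed by -0.00013 with an interval of -0.13 to 0.13 (limma adjusted p = 0.999).

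Elovl2, which makes the precursors of docosahexaenoic acid, went from 74.5, 129.3 and 255.6 scaled TPM (lowest, median, highest) in control livers to 69.6, 109.4 and 234.7 in high-fat livers. The lowest values were close, and 59 of 74 high-fat livers were at or under the control median. The log2 difference was -0.24 (SE 0.0619, limma adjusted p = 0.00297). Elovl1, at 10.4, 19.8 and 49.7 in control and 8.02, 17.2 and 43.5 in high-fat livers, differed by -0.22 (SE 0.0668, limma adjusted p = 0.0212), with 50 of 74 high-fat livers not above the control median. These 2 smaller differences did not pass when libraries were scaled by the median log ratio (adjusted p = 0.0575 and 0.084), and Elovl1 did not pass without the filter on low values (adjusted p = 0.055). Over 11 alternatives the limma adjusted p ran from 0.000228 to 1 for Elovl2, from 0.000419 to 1 for Elovl1, from 9.35e-07 to 1 for Fads1 and from 1.01e-09 to 0.328 for Elovl5, with the highest of each for TPM without scaling. Without the 8 livers that held muscle fibre RNA, the 4 genes kept their calls, with Elovl5 at -0.66 and Fads1 at -0.44.

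Of the 6 genes at 5 scaled TPM or more in liver, Elovl3 had the highest coefficient of variation on both diets. It spanned 22.98, 279.9 and 810.6 scaled TPM (lowest, median, highest) on the control diet and 6.87, 270.4 and 837.6 on the high-fat diet, and the groups covered nearly the same range. Its coefficient of variation was 57.7% and 64.6%, against 38.6% and 42.2% for Fads2. The diet difference of -0.08 had a wide 95% interval, -0.47 to 0.31 (limma adjusted p = 0.876). The spread itself was not shown to differ by diet for any of the 6 liver genes at 5 scaled TPM or more, by limma on each mouse's absolute distance from its group's median. The smallest unadjusted p was 0.0461, for Fads1 (adjusted p = 0.998), the single value under 0.05, and 0.0269% of all genes passed. In muscle 0 of 3 genes passed, with no unadjusted p under 0.418, where 0.0348% of all genes did.

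**Figure D2:**
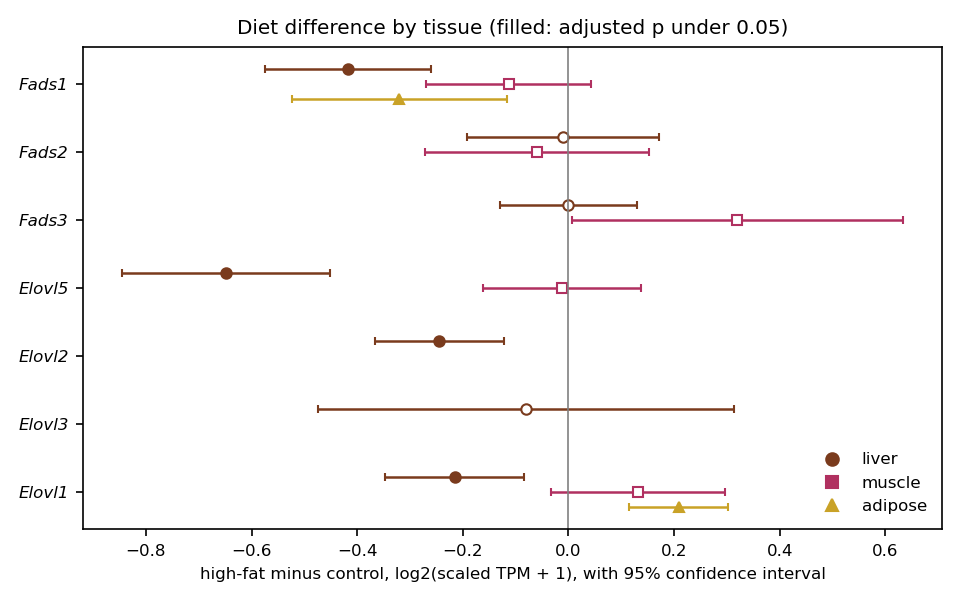
High-fat minus control difference of each gene on the log2(scaled TPM + 1) scale, with its 95% confidence interval, in liver (circles), muscle (squares) and adipose tissue (triangles); filled symbols have an adjusted p under 0.05. In liver Elovl5 lies at -0.65 and Fads1 at -0.42 while Fads2 and Fads3 lie at 0, and Elovl1 lies at -0.22 in liver and 0.21 in adipose tissue.

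The unequal diet differences of these genes can also be given within each library, where a ratio of 2 genes needs no scaling. Such ratios rest on the same values as the single differences, so they are no separate support. These ratios were added after the values had been seen, as 15 pairs in liver, each tested by a two-sided permutation test over mice. The log2 ratio of Fads1 to Fads2 was -0.40 ± 0.318 in control and -0.81 ± 0.358 in high-fat livers (SD, n = 74 each), a difference of -0.41 (SE 0.0557), and 63 of 74 high-fat livers were below the control median. Its p of 1e-05 is the smallest the permutations can give (adjusted p = 5e-05). Relative to Elovl5, Fads2 rose by 0.64 (SE 0.0853) and Elovl2 by 0.41 (SE 0.0833), both with the same smallest permutation p. In all, 8 of the 15 ratios passed. Without the libraries of low scale factor 8 passed as well, with Fads2 to Elovl1 in place of Fads1 to Elovl5, and the Fads1 to Fads2 difference was -0.415.

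**Figure D3:**
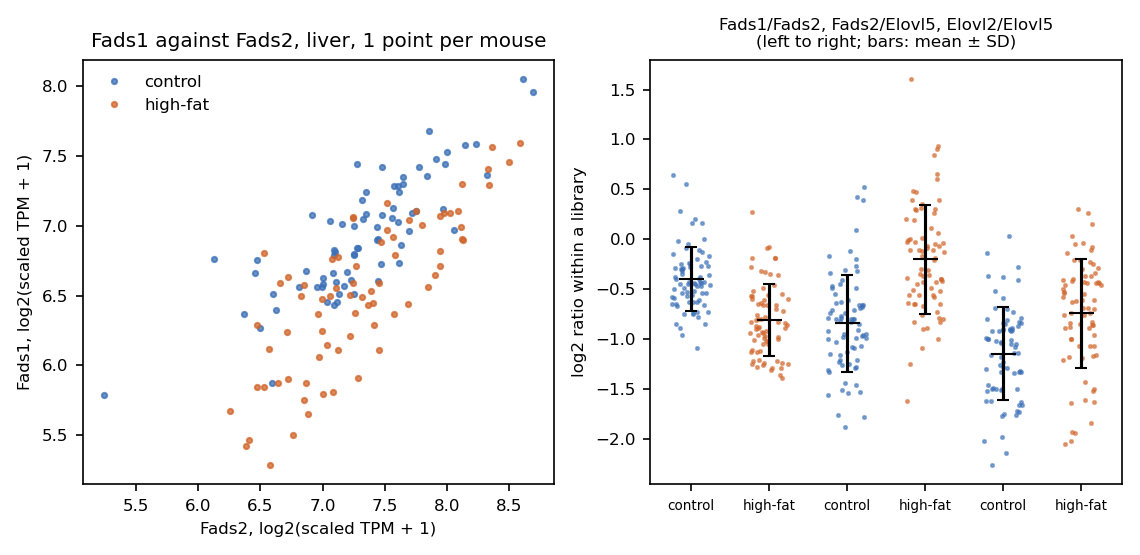
Left, Fads1 against Fads2 in liver, log2(scaled TPM + 1), 1 point per mouse, by diet. Right, log2 ratios within a liver library, Fads1 to Fads2, Fads2 to Elovl5 and Elovl2 to Elovl5 from left to right, with mean ± SD; the high-fat points lie below control for the first ratio (-0.81 against -0.40) and above it for the other two.

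Among mice on the same diet the levels of the genes of polyunsaturated acid synthesis were positively related in liver. Fads1, Fads2, Elovl2 and Elovl5 form 6 pairs, and all 12 of their relations over both diets passed a permutation test, with Pearson r from 0.469 to 0.825. They ranged from 0.436 to 0.788 without the 2 mice farthest from the median and from 0.463 to 0.824 without libraries of low scale factor. The share of relations that pass over all pairs of liver genes was not computed. The tightest pair was Fads1 and Fads2, with r = 0.825 and Spearman rho = 0.812 on the control diet and r = 0.80 and rho = 0.777 on the high-fat diet (n = 74 each, permutation adjusted p = 2.73e-05 for r and 3.33e-05 for rho in each). Of 6634 genes at 5 scaled TPM or more, Fads2 was the one most like Fads1 by mean rho over the diets (0.794), and the reverse also held. The 3 genes most like Elovl2 were Fads1, Fads2 and Elovl5, with mean rho of 0.632, 0.606 and 0.528. Elovl5 held place 26 among the genes most like Fads1 and place 7 for Fads2. Among the genes most like Elovl5, Fads2 held place 6, Elovl2 place 25 and Fads1 place 51. After Fads1, Fads2 was most like Acacb, an acetyl-CoA carboxylase (0.638), and Elovl6 (0.614). Elovl5 was most like Acly (0.696), Acsl5 (0.668) and Me1 (0.664), which supply citrate-derived acetyl-CoA, acyl-CoA and NADPH. The lowest values were Gstp1 for Fads1 (-0.452), Mug1 for Fads2 (-0.387) and Elovl5 (-0.49), and Tmed9 for Elovl2 (-0.371). Mice of this stock differ in genotype, and points share the library's scale factor: with TPM as deposited, r for Fads1 and Fads2 was 0.979 and 0.975.

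In all, 21 of 30 relations between liver genes passed a permutation test, with each pair counted separately on each diet. Elovl1 was related to Fads1 on the high-fat diet (r = 0.439, rho = 0.411, permutation adjusted p = 0.000231, r = 0.366 without the 2 farthest mice) and had r = -0.0173 on the control diet (permutation adjusted p = 0.884). The difference between the diets was not tested. The genes most like Elovl1 were Cmtm6 (mean rho 0.455), Rgs3 (0.432) and Fabp5 (0.413), and Zfp281 had the lowest value (-0.433).

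Windows of 250 bases before the start of the gene, as given by RefSeq for GRCm38.p6, were at hand for 6 of the 8 genes, those other than Fads1 and Elovl3. Those of Fads2 and Elovl5 are shown because the genes varied together among mice (r = 0.649 and 0.587) while only Elovl5 passed the diet test. Bases are in lower case, 5′ to 3′ on the gene's strand, with matches to the searched motifs in capitals. The Fads2 window is chr19:10101504-10101753 on the minus strand, and the Elovl5 window is chr9:77917115-77917364 on the plus strand.
Fads2: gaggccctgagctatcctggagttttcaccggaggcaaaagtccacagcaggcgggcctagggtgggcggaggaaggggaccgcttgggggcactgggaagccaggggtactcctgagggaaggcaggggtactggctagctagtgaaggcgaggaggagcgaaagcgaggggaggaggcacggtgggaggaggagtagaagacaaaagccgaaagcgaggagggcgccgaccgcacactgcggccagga
Elovl5: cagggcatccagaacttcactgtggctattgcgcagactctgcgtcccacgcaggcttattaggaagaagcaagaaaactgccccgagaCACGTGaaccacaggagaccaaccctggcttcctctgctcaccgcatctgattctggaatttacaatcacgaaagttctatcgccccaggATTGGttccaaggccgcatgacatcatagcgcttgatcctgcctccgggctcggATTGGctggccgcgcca
The letters searched on both strands were CCAAT, known from NF-Y sites, then CACGTG, an E-box, then AGGTCA, a nuclear receptor element, and last CACNCCAC, known from SREBP sites. No matches overlapped in these windows. Elovl5 held 2 matches of CCAAT, both on the opposite strand, at distances of 71 and 17 bases from the start, and 1 match of CACGTG. Fads2 held none of the 4, and 64.8% of its bases were G or C, against 55.6% for Elovl5 and a median of 52.4% over all windows. Over all 32851 windows of this length, 33.8% held the first of these motifs, 6.02% the E-box, 14.0% the nuclear receptor element and 5.29% the last. Fads3, which did not pass the diet test in liver, also held 2 matches of CCAAT, and the upstream of the 2 Elovl1 windows held 1. The 2 windows of Elovl2, which was lower on the high-fat diet, held 0 matches of any of the 4 motifs. Whether these motifs bear on the diet differences was not tested.

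In liver Elovl3 was related to clock genes. It was negatively related to Fads1 on both diets (r = -0.286 and -0.315, rho = -0.252 and -0.233, permutation adjusted p of r = 0.022 and 0.0113 and of rho = 0.0441 and 0.0662, r = -0.29 and -0.302 without the 2 farthest mice), and to Fads2 on the high-fat diet (r = -0.382, rho = -0.277, permutation adjusted p = 0.00136, r = -0.278 without the 2 farthest mice). With TPM as deposited, the relation to Fads1 was positive (r = 0.678 and 0.592). On the control diet it was positively related to Elovl5 (r = 0.297, rho = 0.336, permutation adjusted p = 0.0187, r = 0.331 without the 2 farthest mice) and Elovl1 (r = 0.259, rho = 0.317, permutation adjusted p = 0.0382, r = 0.32). On the high-fat diet neither passed, with r = -0.109 for Elovl5 (rho = 0.0218, permutation adjusted p = 0.462) and 0.0783 for Elovl1 (rho = 0.0881, permutation adjusted p = 0.59). Among the genes most like it were Slc30a10, a manganese transporter (mean rho 0.681), and Arntl, the clock activator Bmal1 (0.645), and the least like was Nr1d2, the clock repressor Rev-erb beta (-0.656). Relations with fixed lists were then added after these values were seen, as 264 relations in liver. Arntl and Nr1d2 had already stood out in these same livers, so their tests below are no separate support. The share of all liver genes that pass with Elovl3 was not computed, and relations of the clock genes to each other were not taken into account. On the control diet 9 of 10 clock genes passed a permutation test with Elovl3, 3 of them positive, and on the high-fat diet 7 of 10, 3 of them positive. With Arntl, r was 0.641 and 0.58 (rho 0.617 and 0.674), and with Nfil3 0.549 and 0.486 (rho 0.576 and 0.681), on the control and high-fat diet. With Nr1d2, r was -0.573 and -0.586 (rho -0.605 and -0.706), and with Dbp, a clock output factor, -0.645 and -0.57 (rho -0.588 and -0.679). The permutation adjusted p of r was 0.000203 for each of these, and leaving out the 2 farthest mice gave r of 0.612 and 0.688 for Arntl and -0.545 and -0.632 for Nr1d2. Nr1d1 had r = -0.415 on the control diet (permutation adjusted p = 0.00314) and did not pass on the high-fat diet (r = -0.0756, adjusted p = 0.804). Insig2, an endoplasmic reticulum protein that retains the sterol sensor, also tracked Elovl3 (r = 0.687 and 0.538, rho = 0.659 and 0.595, permutation adjusted p = 0.000203, r = 0.665 and 0.737 without the 2 farthest mice). The hour at which each mouse was killed is not given in the sources used here, and its part in these relations was not tested.

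**Figure D4:**
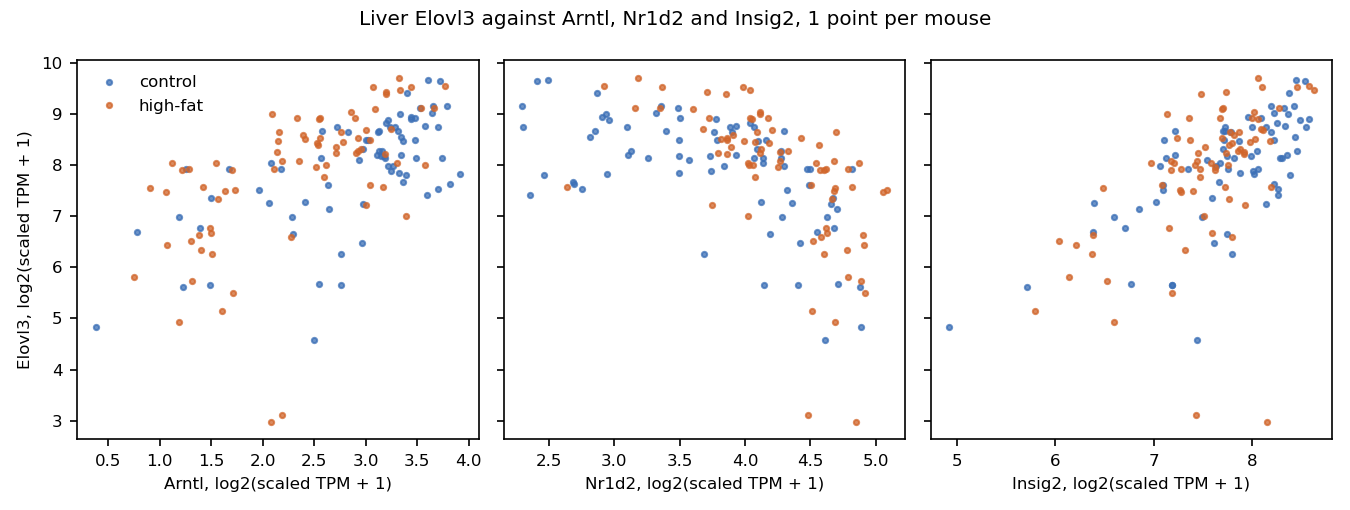
Liver Elovl3 against Arntl, Nr1d2 and Insig2, all as log2(scaled TPM + 1), 1 point per mouse, by diet. Elovl3 is higher where Arntl and Insig2 are high and lower where Nr1d2 is high, on both diets.

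Of the other clock relations in liver, Elovl5 passed with 3 of 10 on the control diet and 0 of 10 on the high-fat diet, Fads2 with 0 and 2, Elovl1 with 1 (Hlf) and 0, and Fads1 and Elovl2 with 0 on either diet. Srebf1, which encodes a main activator of fatty acid synthesis genes, had r between -0.197 and 0.161 with the 6 genes over both diets, and no permutation adjusted p was under 0.32. Insig1, a target and brake of the same pathway, was related on the high-fat diet to Fads1 (r = 0.43, rho = 0.431), Fads2 (r = 0.333, rho = 0.389), Elovl2 (r = 0.317, rho = 0.325) and Elovl5 (r = 0.431, rho = 0.451), with permutation adjusted p of r of 0.00208, 0.0306, 0.0455 and 0.00238 and r of 0.423, 0.387, 0.281 and 0.42 without the 2 farthest mice. On the control diet Elovl5 alone passed with Insig1 (r = 0.35, rho = 0.341, permutation adjusted p = 0.0211, r = 0.308 without the 2 farthest mice). Of the 12 regulators, other relations passed too, beside Insig2 with Elovl3. Elovl5 was negatively related to Rxra on both diets (r = -0.358 and -0.455, permutation adjusted p = 0.0181 and 0.000776). On the control diet Elovl5 was positively related to Insig2 (r = 0.47, adjusted p = 0.000776) and Elovl1 negatively to Ppara (r = -0.351, rho = -0.241, adjusted p = 0.0208). On the high-fat diet Elovl3 was negatively related to Ppara (r = -0.381, adjusted p = 0.0102). SREBP activity rests on protein processing, which mRNA levels do not measure.

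The diet moved other genes of the pathway in liver. Of the other desaturases and elongases, 2 of 5 tested fell and 0 rose: Scd1, the delta-9 desaturase, from 1817 ± 1005 to 153 ± 268 scaled TPM (log2 difference -4.94, limma adjusted p = 3.74e-35), and Elovl6 from 36.7 to 17.5 (-1.11, adjusted p = 6.14e-10). Of the partners of the elongation cycle, Hacd3 rose by 0.16 and Tecr fell by 0.23 among 5 tested. Of the genes that supply electrons to desaturases, 2 of 5 fell, Cyb5r3 by 0.47 (limma adjusted p = 1.65e-15) and Cyb5b by 0.30 (adjusted p = 1.76e-06), and 0 rose. Peroxisomal chain shortening, which completes docosahexaenoic acid, had 3 of 9 higher, Hsd17b4 by 0.30, Acaa1a by 0.33 and Acot8 by 0.34, and 1 lower. Activation and phospholipid incorporation had 3 of 9 higher, among them Mfsd2a, a carrier of docosahexaenoic acid in lysolipid form, from 14.8 to 29.5 scaled TPM (1.05, limma adjusted p = 7.58e-06), and 2 lower, among them Acsl5 by -0.55 (adjusted p = 3.34e-14). Release and eicosanoid synthesis had 2 of 7 higher, the epoxide hydrolases Ephx2 (0.45) and Ephx1 (0.28), and 0 lower.

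Among transcription regulators of lipid synthesis 2 of 14 rose, among them Rxra (0.19), and 4 fell, among them Mlxipl, the carbohydrate response factor ChREBP (-0.39, limma adjusted p = 1.2e-09), and Scap (-0.28, adjusted p = 0.00037). Of the sphingolipid partners 0 of 7 passed. Of the clock genes 9 of 14 rose, among them Tef (0.67), Per3 (0.78) and Ciart (0.83), and 2 fell, with a list median of 0.40 against -0.01 over all genes. Of 10 male-biased liver genes Cyp7b1 alone rose (0.56, limma adjusted p = 0.00277), and of 3 tested female-biased genes Cyp2b9 rose (0.95) and Gstt3 fell (-0.44). Markers of the hepatocyte also moved, with 2 of 8 higher and 4 lower, Alb by -0.20, and 1 of 7 macrophage markers, Mpeg1, fell (-0.34, adjusted p = 0.0461). Of 5 adipocyte markers Lpl fell (-0.56, limma adjusted p = 0.000632) and Pparg rose (0.38, adjusted p = 0.00865). Ppargc1a fell among 3 brown adipocyte markers (-0.39, limma adjusted p = 0.00251) and Kdr among 6 endothelial markers (-0.10, adjusted p = 0.0498). Their part in the enzymes' differences was not tested.

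In muscle, where the family is low, 0 of the 5 genes tested passed by limma, against 1.61% of all 13518 genes (1.03% higher, 0.577% lower), and 1 had an unadjusted p under 0.05. Elovl5 spanned 5.45, 10.5 and 37.0 scaled TPM (lowest, median, highest) in control and 5.39, 11.1 and 31.04 in high-fat muscles, and the groups overlapped nearly in full. Its difference was -0.01 with a 95% interval of -0.16 to 0.14. Fads1 differed by -0.11 (-0.27 to 0.04), Fads2 by -0.06 (-0.27 to 0.15) and Elovl1 by 0.13 (-0.03 to 0.30).

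Fads3 in muscle had the unadjusted p under 0.05. It spanned 1.03, 3.90 and 43.6 scaled TPM in control and 1.28, 5.35 and 34.03 in high-fat muscles, and 52 of 74 high-fat muscles lay above the control median. The log2 difference was 0.32 (SE 0.159, limma p = 0.0455, adjusted p = 0.382). Its level followed the adipocyte markers in the sample, 11 genes that summed to 487 to 7840 scaled TPM (median 1130) in control and 535 to 5240 (median 1260) in high-fat muscles. Against this sum Fads3 had r = 0.932 and rho = 0.867 on the control diet and r = 0.913 and rho = 0.901 on the high-fat diet (n = 74 each, permutation adjusted p of r = 4.36e-05, r = 0.916 and 0.897 without the 2 farthest mice, among 48 relations added after the values were seen). The genes most like Fads3 were Trarg1 (mean rho 0.938), Cidec, a lipid droplet protein of adipocytes (0.93), and Ptger3 (0.925), and Trip10 had the lowest value (-0.708). With the adipocyte marker sum as a covariate, added after the data were seen, the difference was again 0.32 and passed (limma adjusted p = 0.00016, the lowest over 11 alternatives, with 0.708 the highest). None of the 11 adipocyte markers passed the diet test in muscle, but some lay near the threshold, in opposite directions. Lep was at 1.03 (limma adjusted p = 0.0613), Cfd at -0.91 (adjusted p = 0.0615) and Slc2a4 at -0.16 (adjusted p = 0.061). The median difference of the 11 was 0.22, against -0.005 over all genes. Beyond this covariate, the part of adipocyte content in the Fads3 difference was not tested.

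Elovl5 in muscle also tracked the adipocyte sum (r = 0.762 and 0.494, rho = 0.659 and 0.425, permutation adjusted p of r = 4.36e-05 for each, r = 0.727 and 0.416 without the 2 farthest mice). The genes most like it were Acsl5 (mean rho 0.716), Atl3 (0.695) and Pgrmc1 (0.695), and Asph had the lowest value (-0.626). Among those most like muscle Elovl1 were Cers5, a ceramide synthase (0.644), and Cap1 (0.612), with Mpp6 lowest (-0.591). Within the library, Fads3 rose by 0.42 relative to Elovl5 on the high-fat diet (SE 0.148, permutation adjusted p = 0.0156), 1 of 3 muscle ratios to pass, and 2 passed without the libraries of low scale factor. Of the 6 relations among Fads3, Elovl1 and Elovl5 over both diets, 5 passed a permutation test.

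The highest muscle values of the other genes sat in libraries with RNA of other cell types. The 5 muscles with keratinocyte markers held Elovl1 at 14.4 to 28.3 scaled TPM, above all other muscles, whose highest was 13.7. The same 5 held Elovl7 at 1.81 to 9.21, above the other muscles' highest of 1.46. Krt14, a basal keratinocyte keratin, was at 86.2 to 507 against a highest of 28.1. It is among the markers whose sum picked these 5, so its level there is no separate support. Elovl4, the elongase of skin ceramides, which is not among the 8 genes, was at 40.3 to 78.6 there and at most 4.50 elsewhere. Fads1 and Fads2 were highest in the same 2 high-fat muscles, at 17.8 and 44.6 in the first and 18.2 and 38.8 in the other. The highest values among all other muscles were 13.8 for Fads1 and 12.6 for Fads2. These 2 muscles also held Crisp1 at 1449 and 501 scaled TPM and Akr1b7 at 1428 and 2065, genes known from the male reproductive tract and named after their values were seen. Akr1b7 reached at most 46.4 in the others.

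Elovl2 in muscle lay at a median of 2.29 scaled TPM in the 10 muscles with hepatocyte markers, from 1.197 to 12.0, and at a median of 0.0517 in the others, of which the highest was 1.70. It correlated with the hepatocyte sum on both diets (r = 0.735 and 0.845, rho = 0.581 and 0.755, permutation adjusted p of r = 4.36e-05, r = 0.726 and 0.789 without the 2 farthest mice). Elovl3 in muscle was highest in mice 91 and 150, at 34.2 and 29.7, whose hepatocyte markers summed to 7130 and 3660. It was next highest in mice 15 and 6, at 23.7 and 21.5, of which the first had a hepatocyte sum of 56.4, and whose Ucp1, the brown fat uncoupling protein, was at 488 and 455. The 5 muscles with keratinocyte markers held Elovl3 at 6.06 to 20.1 (median 7.69), against a median of 0.151 in the other muscles, whose highest was 34.2. Without the 17 muscles that held keratinocyte, hepatocyte or Crisp1 RNA, again 0 of 5 genes passed the diet test, and the share of all genes that passed went from 1.61% to 0.852%.

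**Figure D5:**
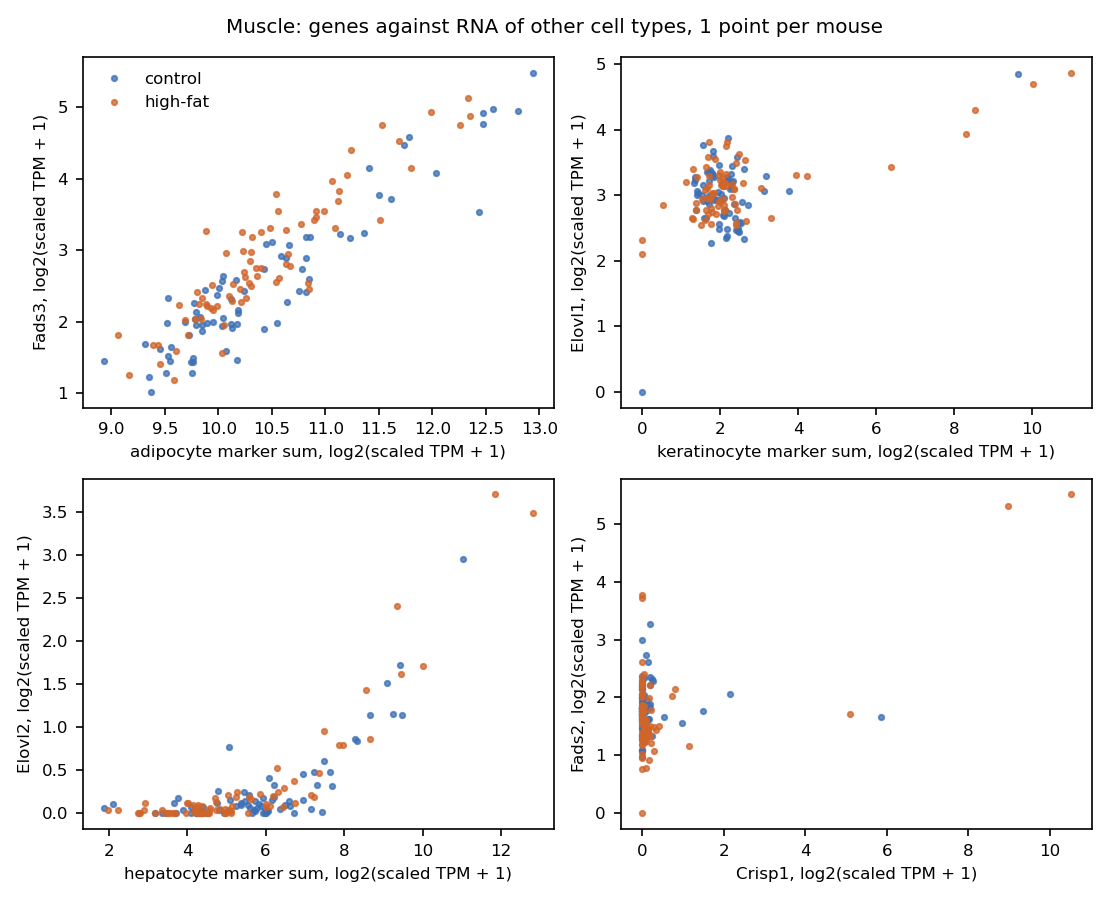
Muscle libraries, 1 point per mouse, by diet, all axes log2(scaled TPM + 1): Fads3 against the adipocyte marker sum, Elovl1 against the keratinocyte marker sum, Elovl2 against the hepatocyte marker sum and Fads2 against Crisp1. Fads3 rises along the whole range of the adipocyte sum. The top 5 Elovl1 points are the libraries with keratinocyte markers, and they begin close above the rest (14.4 against 13.7 scaled TPM). The top 2 Fads2 points lie far above the rest.

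Of the other desaturases and elongases, Scd2 (-0.50, limma adjusted p = 0.00738) and Elovl6 (-0.92, adjusted p = 0.00747) fell among 5 tested. No gene passed among 6 elongation partners, 6 electron suppliers, 13 transcription regulators or 8 sphingolipid partners. Abcd3 and Hsd17b4 rose among 9 peroxisomal genes (0.20 and 0.17), Agpat3 and Acsl1 among 11 genes of activation and incorporation (0.21 and 0.31), and Ephx2 among 10 of release (0.36). Of 15 clock genes 4 rose and 1, Arntl, fell (-0.40, adjusted p = 0.00112).

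In adipose tissue both genes passed, in opposite directions, where 45.6% of the 2226 genes tested by limma did (22.9% higher, 22.7% lower). Elovl1 rose. It spanned 30.7, 49.97 and 80.7 scaled TPM (lowest, median, highest) in control and 35.5, 57.4 and 108.2 in high-fat mice, and 57 of 75 high-fat mice lay above the control median. The log2 difference was 0.21 (SE 0.0476, limma adjusted p = 0.000128). Fads1 fell, from 18.8, 48.9 and 159.2 in control to 16.9, 35.75 and 146.9 in high-fat mice, with 58 of 75 high-fat mice not above the control median. Its log2 difference was -0.32 (SE 0.103, limma adjusted p = 0.00694). The log2 ratio of Fads1 to Elovl1 differed by -0.54 (SE 0.127, permutation p = 0.0001, lower in 62 of 75 high-fat mice than the control median).

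Cell type markers in adipose tissue also differed between the diets, and marker RNA alone does not count cells. The 4 macrophage markers in the table summed to 57.8 to 628 scaled TPM in control and 78.6 to 1050 in high-fat mice. Clec4f, specific to Kupffer cells, had a median near 0. Of the 3 tested, 2 rose, among them Cd68 from 67.7 to 212.3 (1.56, limma adjusted p = 3.63e-13), and Cd163 did not pass (-0.13, adjusted p = 0.171). All 5 adipocyte markers fell, among them Retn by 1.28, and their sum went from a median of 7330 (2350 to 13800) to 5100 (2090 to 9790). Both fibroblast markers rose, Col1a1 by 0.59 (limma adjusted p = 1.26e-05) and Dcn by 0.16 (adjusted p = 0.0188), and 1 of 3 endothelial markers, Ptprb, fell (-0.18, adjusted p = 0.0146). Elovl1 was most like Cd44 (mean rho 0.751), Tubb6 (0.734) and Cd68 (0.73) and least like Esr1 (-0.599), and Fads1 most like Tead3 (0.583), Folr1 (0.579) and Galk1 (0.568) and least like Ell2 (-0.649). With the macrophage sum as a covariate, added after the data were seen, Elovl1 was at -0.08 (limma adjusted p = 0.279) and Fads1 at -0.07 (adjusted p = 0.817), and 35 of all genes passed in place of 1015. With the adipocyte sum as a covariate, Elovl1 was at 0.12 (limma adjusted p = 0.0489) and Fads1 at -0.62 (adjusted p = 1.67e-06). The covariate itself differed between the diets, so these values do not separate diet from cell makeup. Over 11 alternatives the limma adjusted p ran from 6.34e-06 to 0.279 for Elovl1 and from 1.67e-06 to 0.817 for Fads1.

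Of the pathway lists in the adipose table, activation and incorporation had 1 of 4 higher, Acsl1 (0.31), and 2 lower, among them Agpat3 (-0.26). Release had 1 of 4 higher, Ltc4s (0.43). Of the transcription regulators 3 of 6 fell, Mlxipl (-0.78), Srebf1 (-0.47) and Rxra (-0.22), and of 3 sphingolipid partners 2 fell, Kdsr (-0.35) and Cers2 (-0.12). None of 3 peroxisomal genes and 1 electron supplier passed, and Hlf fell of 2 clock genes (-0.55).

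The diet difference of Elovl5 was not the same in liver and muscle. The interaction, muscle minus liver, was 0.64 for Elovl5 (SE 0.125, limma adjusted p = 0.000162), with 3.26% of 10965 genes passing (1.93% higher, 1.33% lower), and 0.59 (adjusted p = 0.00053) without the libraries that held RNA of other tissues. For Elovl1 it was 0.35 (SE 0.107, limma adjusted p = 0.0453) and 0.32 without those libraries, where it did not pass (adjusted p = 0.0679). Over 7 alternatives that adjusted p ran from 0.00238 to 0.939 for Elovl1, and from 8.59e-05 to 0.939 for Elovl5. The other 3 genes did not pass, with Fads1 at 0.30 (95% interval 0.08 to 0.53, adjusted p = 0.124), Fads3 at 0.32 and Fads2 at -0.05. Between adipose tissue and liver, Elovl1 differed by 0.42 (SE 0.0821, limma adjusted p = 8.32e-06), where 26.6% of 1782 genes passed, and Fads1 by 0.10 (-0.16 to 0.35, adjusted p = 0.619). Between adipose tissue and muscle, where 24.1% of 1930 genes passed, 0 of 2 genes did by limma, and 0 had an unadjusted p under 0.05. The differences were 0.08 for Elovl1 (-0.11 to 0.27) and -0.21 for Fads1 (-0.46 to 0.05).

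None of 10 relations between levels of the same mouse in different tissues passed a permutation test after adjustment. Between liver and muscle, Elovl5 had r = 0.0953 and 0.0647 (rho 0.12 and 0.135) and Elovl1 r = -0.13 and 0.0901 (rho -0.0904 and -0.0332) on the control and high-fat diet, and 0 of these 4 relations passed a permutation test (smallest adjusted p = 0.582). Between adipose tissue and liver on the control diet, added after the data were seen, Fads1 had r = 0.234 (rho = 0.28, permutation p = 0.0461, adjusted p = 0.0958, n = 73, r = 0.246 without the 2 farthest mice) and Elovl1 r = 0.233 (rho = 0.262, permutation p = 0.0479, adjusted p = 0.0958, r = 0.186). With TPM as deposited these were r = -0.0654 and -0.0694. On the high-fat diet Fads1 had r = 0.134 (rho = 0.125, permutation adjusted p = 0.338) and Elovl1 r = 0.0612 (rho = 0.0937, adjusted p = 0.608), the adjustment being over these 4 relations. Between adipose tissue and muscle, Elovl1 had r = -0.0632 and -0.032 (rho -0.01 and 0.0291) on the control and high-fat diet (permutation adjusted p = 0.785 for each).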

How the data were processed

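The authors deposited TPM per gene for each library, and no values for read depth. Per the labels' protocols, stranded total RNA libraries were sequenced on MiSeq from samples of each animal, and per the submitters' processing notes FastQC, Trim Galore 0.4.4 and Bowtie 1.2.2 were used. Which program and which genome build gave the TPM is not given in the sources used here, and the unit was read from the values. The liver and muscle columns sum to 1000000. The adipose table holds 2728 complete genes, and 1 incomplete line was left out.

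Groups follow the labels' tissue and feed type, with liver and muscle of mouse 80 left out. Gene IDs were matched to a reference table of symbols (99.1% in liver and muscle, 99.9% in adipose tissue). Each library was scaled within its tissue to a reference library by a trimmed mean of log ratios, without weights, over nuclear protein-coding genes (trimming 0.3 of ratios and 0.05 of levels from either side). Genes entered a test if they reached 1 scaled TPM in a number of libraries equal to 0.7 of the smaller group. Tests used limma 3.58.1 in R 4.3.3 (trend and robust, two-sided) on log2(scaled TPM + 1), which understates changes of low genes, with Benjamini-Hochberg adjustment over all genes tested and a threshold of 0.05. Intervals are 95% limma intervals. Differences between tissues were interaction terms. Relations and ratios used 100000 two-sided permutations (SciPy 1.17.1), so 1e-05 is the smallest p they can give before adjustment. The fits were tested on simulated data.

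The genes, the lists and the marker genes were chosen with earlier results of these data known. Named genes were all members, up to 3 genes of each list with the smallest p per tissue, and for each member at 5 scaled TPM or more the 3 genes with the highest mean Spearman rho and the 1 with the lowest. Some genes that this rule names are not reported here. The labels say that tissues came from each animal, so same-numbered samples share a mouse. Deviations of liver and muscle of 1 number correlated with a median r of 0.259 over 10965 genes, against -0.00148 for other numbers, and best with their own number in 110 of 148 mice. For adipose tissue and liver the medians were 0.0874 and -0.00122 (26 of 147 mice), and for adipose tissue and muscle 0.138 and -0.00145 (30 of 147). Separate litters or cages are not named in the labels, and p values measure the spread between mice. Alternatives were the pseudocount, the filter, TPM without scaling, another scaling, low-factor libraries left out, array weights, plain eBayes, the mouse as a block, second-number liver libraries left out and mouse 80 kept.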

Additional observations from a re-analysis of the deposited data

Results flagged for a closer look

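The diet difference of 2 genes differed between tissues by a test of the difference itself. Elovl5 was lowered in liver and not detectably changed in muscle, with muscle minus liver at 0.64 on the log2 scale (limma adjusted p = 0.000162). Elovl1 gave 0.35 for muscle minus liver (limma adjusted p = 0.0453) and 0.42 for adipose tissue minus liver (adjusted p = 8.32e-06), with the diet differences themselves at -0.22 in liver, 0.13 in muscle and 0.21 in adipose tissue. The Elovl1 value for muscle minus liver passed in 3 of 7 alternatives, with limma adjusted p from 0.00238 to 0.939, and did not pass without the libraries that held RNA of other tissues (adjusted p = 0.0679).

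The muscle-labelled library of mouse 80, which was left out of the comparisons above and kept only in an alternative, held 5 of the genes above every control muscle, in TPM as deposited: Fads1 at 150 (control highest 18.2), Fads2 at 266 (12.1), Elovl2 at 191 (5.38), Elovl3 at 470.0 and Elovl5 at 353 (51.4). It also held Alb at 38500 TPM, while the liver-labelled library of the same mouse held Alb at 229 and Ckm at 33000.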

How the results depend on the processing

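Of 503 values recomputed under an alternative, 415 kept their direction and their side of the threshold, or stayed within 1.5 times for counts. Without scaling (TPM as deposited) the share of genes passing went from 9.94% to 0.479% in liver, from 1.61% to 0.111% in muscle and from 45.6% to 14.4% in adipose tissue, with 0 of the enzyme genes passing in any of them. It was 0.064% for muscle minus liver and 6.21% for adipose tissue minus liver, again with 0 of the enzymes. The median of all genes then moved to -0.155 in muscle and 0.207 in adipose tissue, and to 0.264 and 0.384 in the interactions of adipose tissue with liver and muscle. Elovl1 was at -0.015 in muscle, Fads1 at 0.17 for adipose tissue minus muscle, and Fads3 at -0.57 for liver minus muscle (limma adjusted p = 0.00153), against -0.38 (adjusted p = 0.00356) for scaling within each tissue. Elovl3 correlated with Fads1 at r = 0.678 and 0.592 and with Fads2 on the high-fat diet at 0.572, values that carry the library factor in every gene.

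Median log ratio scaling let 4.07% of liver genes pass, 2 of them enzymes. Leaving out low-factor libraries gave 15.7% in liver and 5.74% for muscle minus liver, and array weights 17.8% in liver and 3.06% in muscle. Without the filter, which adds genes to the test, 2.77% passed in liver, 0.301% in muscle, 1.23% for muscle minus liver and 52.9% for liver against muscle. In muscle 1.04% passed with mouse 80 kept, 0.852% without the libraries of other RNA, and 3.10% with the adipocyte covariate, 1 enzyme among them. With the macrophage covariate in adipose tissue 1.57% and 0 enzymes passed, with Elovl1 at -0.081. For muscle minus liver, 1 enzyme in place of 2 passed with a pseudocount of 0.1, without the filter, and without the libraries of other RNA. Muscle ratios passing went from 1 to 2 without low-factor libraries. Alternatives that leave out libraries with other RNA, the covariates, and all ratios were chosen after seeing the data. Where no construction shows it, the cause was not tested.

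Signs of differences near 0 changed. Fads3 in liver was 0.0033 with a pseudocount of 5, 0.016 without low-factor libraries, 0.012 with mouse 80 and 0.033 without livers holding muscle RNA, and Elovl3 in liver was 0.024 without second-number libraries. In muscle Fads2 was 0.0099 with a pseudocount of 5 and 0.028 with mouse 80, and Elovl5 0.028 with array weights and 0.056 with mouse 80. In the spread test, Elovl5 in liver was -0.0017 without low-factor libraries and -0.055 unscaled, Elovl1 in liver -0.017 unscaled, and in muscle Elovl1 0.086 and Elovl5 0.11 unscaled. The share passing the spread test in liver was 0.0407% without low-factor libraries, 0.0142% unscaled and 0.0135% with a pseudocount of 0.1, and in muscle 0% unscaled.

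With the mouse as replicate block, the pairing gave 3.85% for muscle minus liver, 27.6% for adipose tissue minus liver, 26.8% for adipose tissue minus muscle and 88.8% for liver against muscle, and no call of an enzyme gene changed in 16 values.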
